A study of Bos taurus with 6 samples.

Results

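The BCL2 family and BH3-only genes encode the proteins that set whether the mitochondria of a cell are opened for apoptosis. The 10 genes described here are the effectors BAX and BAK1, the anti-apoptotic genes BCL2, BCL2L1 and MCL1, and the BH3-only genes BID, BAD, BBC3, PMAIP1 and BCL2L11. They were taken by symbol from the gene rows of the deposited expression table, as 10 of 23475 genes.

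When BAX or BAK1 is activated, its molecules assemble in the outer mitochondrial membrane and let cytochrome c out, which starts the caspases. The anti-apoptotic members bind and restrain the effectors, and the BH3-only proteins, which share just the short BH3 segment with the rest of the family, respond to stress by occupying the anti-apoptotic members or by activating the effectors. Much of this control acts on the proteins, through binding, cleavage, phosphorylation and degradation, which RNA levels do not show.

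The cells came from the subcutaneous fat of premature calves (Bos taurus), were isolated with collagenase as preadipocytes, the precursors of fat cells, and are labelled as adipocytes. Cells of 3 samples received the bta-miR-484 agomir by transfection and those of 3 others the agomir NC, and RNA was taken from all 6 after 48 h. An agomir is a synthetic, chemically stabilized miRNA mimic, which adds to the bta-miR-484 of the transfected cells, and the agomir NC is its negative control. All cultures were grown in DMEM with high glucose and fetal bovine serum. Fat of 3 calves was used, but which calf or culture gave which sample is not stated, so the p-values measure only the spread between these samples, which may be technical. Levels are given as FPKM, the fragments of a gene scaled by transcript length and by the mapped total of the library, so levels of different genes can be compared. Each library held between 365977 and 379361 FPKM in all. The number of reads behind each value is unknown.

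Marker genes were read to check the label. The 12 preadipocyte and fibroblast markers summed to 21309, 22222 and 21264 FPKM in agomir replicates 1 to 3 and to 21057, 22128 and 21968 FPKM in agomir NC replicates 1 to 3, with COL1A1 the most abundant, while DLK1 was listed at 0 in all 6 libraries and CD34 was between 0.383 and 0.783 FPKM. The 8 markers of mature adipocytes summed to 11.5, 12.3 and 11.4 FPKM under the agomir versus 12.6, 11.02 and 11.1 FPKM under agomir NC, with LPL the most abundant, and LEP and CIDEC were listed at 0 in 4 of the 6 libraries. The cells thus carried most markers of the joint preadipocyte and fibroblast list, which does not tell these cell types apart, and few transcripts of mature adipocytes. Marker sums were 3.77 to 4.54 FPKM for endothelial cells (most abundant VWF), 6.93 to 8.27 FPKM for leukocytes (CD14), 208 to 237 FPKM for smooth muscle and pericytes (ACTA2, with RGS5 at 0 in 5 libraries) and 0.145 to 0.379 FPKM for epithelium (EPCAM, with KRT18 at 0 in all 6). Between the groups, 2 of the 10 preadipocyte and fibroblast markers tested were lower with the agomir at an unadjusted p under 0.05 in limma and 0 were higher, against 4.31% and 6.63% of all genes. They were NT5E (73.2 ± 3.73 versus 87.2 ± 3.56 FPKM, SD, n = 3 each, adjusted p of 0.209) and DCN (2863 ± 31.3 versus 3114 ± 129.0 FPKM, SD, n = 3 each, adjusted p of 0.376), with Benjamini-Hochberg adjustment. Of the 5 adipocyte markers tested, FABP4 was lower (1.90 ± 0.400 versus 2.89 ± 0.679 FPKM, SD, n = 3 each, adjusted p of 0.363) and PPARG higher (3.86 ± 0.157 versus 3.23 ± 0.237 FPKM, SD, n = 3 each, adjusted p of 0.407) at that threshold. The part of these markers in the values of the BCL2 family was not tested.

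All 10 genes were detected in every library, at levels that spanned 141.7-fold. Averaged over the 6 libraries, MCL1 was the highest at 118.1 ± 4.54 FPKM, followed by BAX at 51.3 ± 4.37 FPKM and PMAIP1 at 28.1 ± 0.831 FPKM (SD, n = 6 each). Next came BAK1 at 23.1 ± 1.25, BAD at 16.8 ± 1.04 and BID at 15.4 ± 1.02 FPKM (SD, n = 6 each). BCL2L1 was at 9.96 ± 0.991, BBC3 at 4.56 ± 0.452, BCL2L11 at 1.98 ± 0.392 and BCL2 at 0.833 ± 0.338 FPKM (SD, n = 6 each). The order from MCL1 to BCL2 held with no overlap between the ranges of neighbours except for BAD and BID, whose ranges overlapped, with BAD above BID in 5 of 6 libraries. Among the 12422 genes whose mean reached 0.5 FPKM, which included all 10 and were the genes tested, the percentile of level was 96.5 for MCL1, 91.2 for BAX and 6.18 for BCL2. MCL1 thus made up most of the anti-apoptotic RNA of these cells, between 0.908 and 0.926 of the summed FPKM of the 3 anti-apoptotic genes in each library, and BAX made up between 0.662 and 0.732 of the effector sum.

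**Figure D1:**
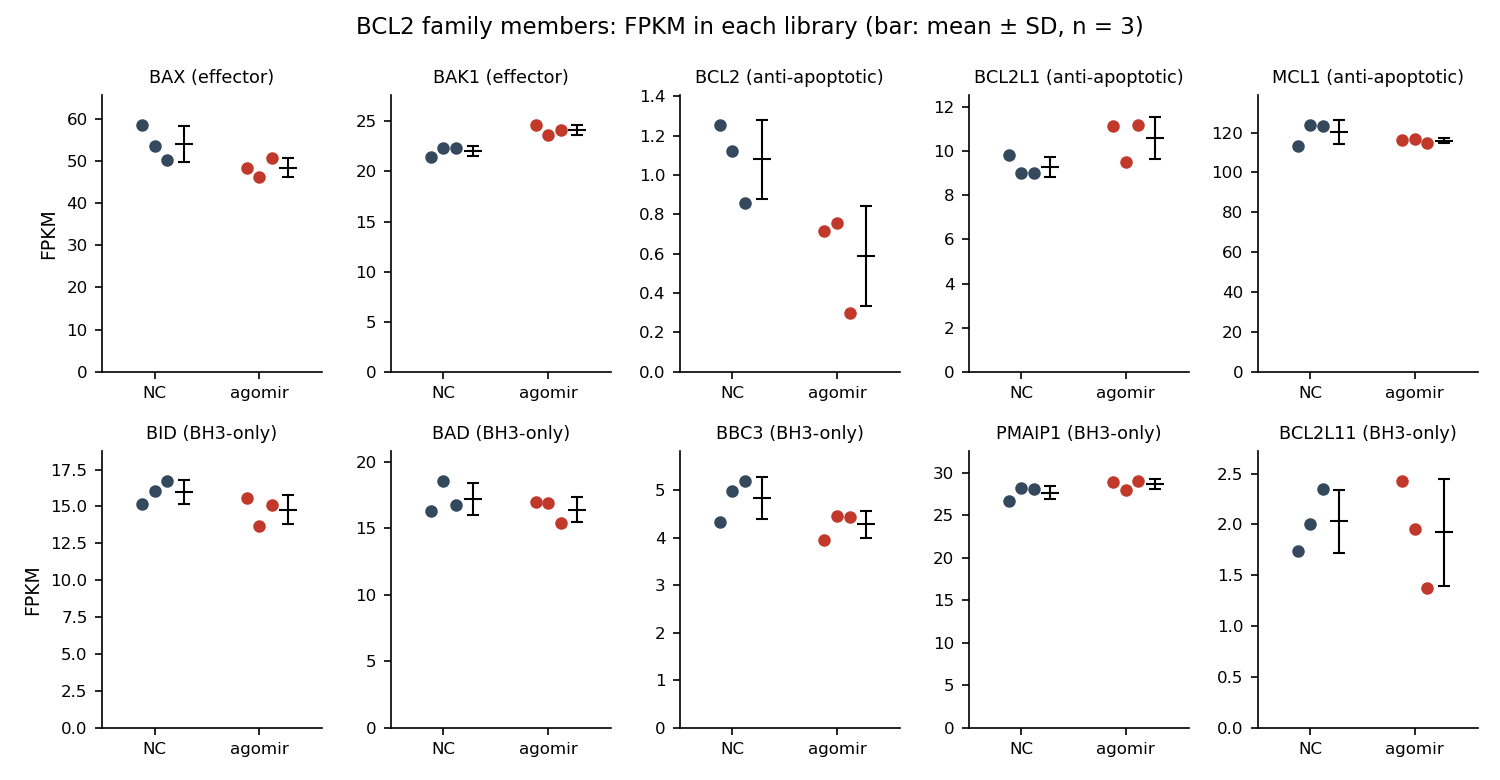
FPKM of each of the 10 genes (vertical axes, from 0) in the 3 agomir NC libraries (dark points, replicates 1 to 3 from left to right) and the 3 agomir libraries (red points), with bars for mean ± SD. BAK1 lies higher and BCL2 lower in every agomir library, and the groups of the other 8 genes overlap.

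Between the groups, 4 of the 10 genes differed at an unadjusted p under 0.05 in limma's two-sided test on log2(FPKM + 0.5), and their directions were split within both roles concerned. BAK1 and BCL2L1 were higher with the agomir, and BAX and BCL2 were lower. In the same test, 6.63% of the 12422 genes tested were higher and 4.31% lower at that threshold, 10.9% in either direction. With limma's p-values adjusted by Benjamini-Hochberg over all genes tested, 0 of the 10 genes were under 0.05, where 0.00805% of all genes were, and the adjusted p of the 10 genes lay between 0.376 and 0.906. The 3 agomir libraries lay above all 3 agomir NC libraries in 1 of the 10 genes (BAK1), against 10.9% of all genes, and below them in 1 (BCL2), against 6.36% of all genes. Of all genes under the unadjusted threshold, 60.6% were higher with the agomir (824 higher, 535 lower), and 48.2% after median-ratio scaling of the libraries (657 higher, 706 lower), under which each of the 10 genes kept its direction. The median log2 fold change was −0.073 over the 10 genes and 0.013 over all genes tested, and −0.087 and −0.0020 after median-ratio scaling and −0.092 and 0.0030 after quantile normalization. The count of 4 depended on single libraries: it was 1 without agomir replicate 1, without agomir replicate 3 or without agomir NC replicate 2, 2 without agomir NC replicate 1, and 3 without either agomir replicate 2 or the agomir NC replicate 3. Over all genes tested, the count was 1359 with all 6 libraries and lay between 1006 and 1423 with 1 left out. The median of the 10 genes was −0.032 without agomir replicate 3. In RNA from whole cultures, fewer cells expressing a gene and less of its RNA per cell cannot be told apart.

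**Figure D2:**
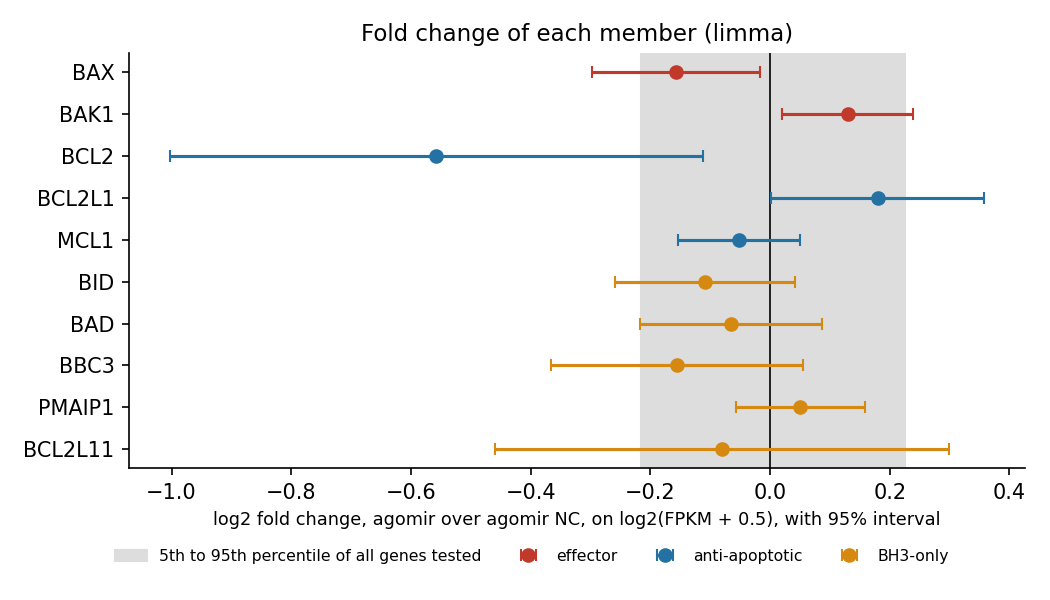
Log2 fold change of each gene (agomir over agomir NC, horizontal axis) with its 95% interval from limma, colored by role, over a gray band from the 5th to the 95th percentile of all genes tested (−0.22 to 0.23). The estimate of BCL2 lies outside the band and those of the other 9 genes inside it, and the intervals of BAX, BAK1, BCL2 and BCL2L1 do not reach 0.

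The effectors BAX and BAK1 differed between the groups in opposite directions. BAX was at 48.3, 46.3 and 50.8 FPKM in agomir replicates 1 to 3 and at 58.7, 53.6 and 50.2 FPKM in agomir NC replicates 1 to 3. The agomir libraries were lower on average, 48.5 ± 2.26 against 54.2 ± 4.27 FPKM (SD, n = 3 each), but the groups overlapped, since agomir replicate 3 was just above agomir NC replicate 3. The log2 fold change of BAX was −0.16 (standard error 0.063, 95% interval −0.30 to −0.016), with p = 0.0323 and adjusted p = 0.409 in limma with Benjamini-Hochberg adjustment and p = 0.2 in the exact two-sided permutation test. That test runs over the 20 labelings of the libraries, and its smallest p is 0.1. Without agomir NC replicate 1, the library with the most BAX, the log2 fold change of BAX was −0.098 with a limma p of 0.131, and the limma p was also above 0.05 without agomir replicate 1 (0.0701), without agomir replicate 2 (0.111), without agomir NC replicate 2 (0.0524) and without limma's variance trend (0.0778).

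BAK1, the other pore-forming effector, was at 24.7, 23.7 and 24.2 FPKM under the agomir versus 21.5, 22.4 and 22.3 FPKM under agomir NC. Every agomir library was above every agomir NC library, and the spread within each group was small, 24.2 ± 0.509 against 22.1 ± 0.507 FPKM (SD, n = 3 each). Its log2 fold change was 0.13 (standard error 0.049, 95% interval 0.020 to 0.24), with p = 0.0256 and adjusted p = 0.398 in limma with Benjamini-Hochberg adjustment, and the exact permutation test gave its smallest p, 0.1. The limma p of BAK1 was above 0.05 without agomir replicate 1 (0.0817), without agomir replicate 3 (0.0648) and without agomir NC replicate 1 (0.0767), at log2 fold changes between 0.11 and 0.14 over all libraries left out in turn. With replicate numbers as a block, the limma p of BAK1 was 0.0570. The effectors summed to 73.0, 69.9 and 75.0 FPKM under the agomir versus 80.2, 76.0 and 72.5 FPKM under agomir NC, and these sums overlapped.

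Among the anti-apoptotic genes, BCL2 was lower, BCL2L1 was higher and MCL1 differed by less than its spread. BCL2, which encodes the founding member of the family, was at 0.713, 0.754 and 0.298 FPKM under the agomir versus 1.26, 1.123 and 0.857 FPKM under agomir NC. Each agomir library was below each agomir NC library, and agomir replicate 3 was the lowest of all. On average BCL2 was at 0.588 ± 0.252 against 1.08 ± 0.203 FPKM (SD, n = 3 each), the lowest level and the widest relative spread among the 10 genes, with an SD of 42.9% of the mean in the agomir group. The log2 fold change of BCL2 was −0.56 (standard error 0.20, 95% interval −1.003 to −0.11), with p = 0.0194 and adjusted p = 0.376 in limma with Benjamini-Hochberg adjustment, and the exact permutation test gave its smallest p, 0.1. At this level the pseudocount matters, and the log2 fold change was −0.84 when 0.1 was added and −0.40 when 1 was added. Without agomir replicate 3 it was −0.35 with a limma p of 0.0695, and the limma p was also above 0.05 without agomir NC replicate 1 (0.0684) and without agomir NC replicate 2 (0.0512).

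BCL2L1, the gene of BCL-XL, was at 11.1, 9.51 and 11.2 FPKM under the agomir versus 9.83, 9.02 and 9.03 FPKM under agomir NC. Agomir replicates 1 and 3 were above the other 4 libraries, and agomir replicate 2 lay below agomir NC replicate 1, so the groups overlapped. The group means were 10.6 ± 0.960 against 9.29 ± 0.467 FPKM (SD, n = 3 each). On the log2 scale the difference was 0.18 (standard error 0.079, 95% interval 0.0023 to 0.36), with p = 0.0476 and adjusted p = 0.448 in limma with Benjamini-Hochberg adjustment, and the exact permutation test gave p = 0.2. The limma p of BCL2L1 was above 0.05 without agomir replicate 1 (0.146), without agomir replicate 3 (0.156), without agomir NC replicate 2 (0.116) or without agomir NC replicate 3 (0.114), and also with no filter on low values (0.0557), after median-ratio scaling (0.0725), after quantile normalization (0.0804) and without the variance trend (0.0618).

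MCL1, whose protein is short-lived and is replaced from its RNA within hours, was at 116.3, 116.8 and 114.6 FPKM under the agomir versus 113.3, 123.9 and 123.5 FPKM under agomir NC. The agomir libraries lay close together, inside the range of the agomir NC libraries. The group means were 115.9 ± 1.16 against 120.2 ± 6.02 FPKM (SD, n = 3 each), and the log2 fold change was −0.051 (95% interval −0.15 to 0.050). The limma p was 0.284 and the exact permutation p was 0.4. Without agomir NC replicate 1, the only agomir NC library below the agomir libraries, the log2 fold change of MCL1 was −0.094 with a limma p of 0.0561, and it was −0.029 without agomir NC replicate 2 and −0.032 without agomir NC replicate 3. Since MCL1 dominates the sum, the anti-apoptotic genes together were at 128.2, 127.1 and 126.1 FPKM under the agomir versus 124.4, 134.1 and 133.4 FPKM under agomir NC, again overlapping.

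The 5 BH3-only genes had 0 members under an unadjusted p of 0.05 in limma, against 10.9% of all genes tested, and the groups overlapped in each. On average 4 were lower and 1 was higher with the agomir, where 55.1% of all genes tested were higher. BBC3 encodes PUMA, a target of p53 that binds all anti-apoptotic members, and was at 3.96, 4.45 and 4.45 FPKM under the agomir versus 4.33, 4.98 and 5.198 FPKM under agomir NC. Agomir NC replicate 1 lay below agomir replicates 2 and 3, and without it the log2 fold change of BBC3 was −0.23 with a limma p of 0.0453, compared with −0.16 (95% interval −0.37 to 0.055) and a limma p of 0.130 over all 6 libraries, where the exact permutation p was 0.3. BID, which is cleaved by CASP8 and links death receptors to the mitochondria, was at 15.6, 13.7 and 15.1 FPKM under the agomir versus 15.1, 16.04 and 16.7 FPKM under agomir NC. Only agomir replicate 1 reached into the range of the agomir NC libraries, and the log2 fold change of BID was −0.11 (95% interval −0.26 to 0.042, limma p = 0.138, exact permutation p = 0.2), and −0.057 without agomir replicate 2. BAD, whose protein is held inactive by phosphorylation downstream of growth factors, was at 17.0, 16.9 and 15.4 FPKM under the agomir versus 16.3, 18.5 and 16.7 FPKM under agomir NC. Agomir replicate 3 was the lowest and agomir NC replicate 2 the highest, while agomir replicates 1 and 2 lay above agomir NC replicates 1 and 3, with a log2 fold change of −0.065 (95% interval −0.22 to 0.087, limma p = 0.360, exact permutation p = 0.6). Dropping agomir NC replicate 2 moved BAD to −0.011, dropping agomir replicate 3 to −0.020 and dropping agomir NC replicate 1 to −0.10.

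PMAIP1 encodes NOXA, which binds MCL1, and was the most abundant of these 5 BH3-only genes, at 28.9, 27.99 and 29.0 FPKM under the agomir versus 26.7, 28.1 and 28.1 FPKM under agomir NC. Its 6 values differed little, with agomir NC replicate 1 the lowest, and its log2 fold change was 0.050 (95% interval −0.057 to 0.16, limma p = 0.321, exact permutation p = 0.3), and 0.026 without agomir NC replicate 1. BCL2L11 encodes BIM, a strong activator of the effectors, and was at 2.43, 1.96 and 1.38 FPKM under the agomir versus 1.74, 2.00 and 2.35 FPKM under agomir NC. The highest and the lowest of the 6 values were both agomir libraries. The log2 fold change of BCL2L11 was −0.080 (95% interval −0.46 to 0.30, limma p = 0.647, exact permutation p = 0.8), and its direction turned without agomir replicate 3 (0.092) and without agomir NC replicate 3 (0.010). The 5 BH3-only genes summed to 67.9, 65.0 and 65.3 FPKM under the agomir versus 64.2, 69.7 and 69.1 FPKM under agomir NC. These sums overlapped between the groups.

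By role, the median log2 fold change was −0.014 for the 2 effectors, −0.051 for the 3 anti-apoptotic genes and −0.080 for the 5 BH3-only genes. With effectors and BH3-only genes counted as 1 class, 2 of the 7 pro-apoptotic genes and 1 of the 3 anti-apoptotic genes were higher on average with the agomir, whereas 55.1% of all genes tested were. No direction was thus shared by the genes of either side. The share over all genes depended on the scaling. After median-ratio scaling 6103 of the 12422 genes tested were higher, while each of the 10 genes kept its direction. The median size of the log2 fold change was 0.12 over the 10 genes and 0.075 over all genes tested.

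Ratios of pro-apoptotic to anti-apoptotic genes were taken within each library and are given as descriptions, with no test. BAX over BCL2, as a ratio of FPKM, was 67.8, 61.4 and 170.5 with the agomir and 46.8, 47.7 and 58.6 with the agomir NC. The groups did not overlap, and the ratio was highest in agomir replicate 3, where BCL2 was lowest. The difference of the mean log2 ratios was 0.81 with all libraries and 0.35 without that library. BAX over BCL2L1 went the opposite way, at 4.34, 4.87 and 4.53 with the agomir and 5.97, 5.94 and 5.56 with the agomir NC. These groups did not overlap either, with a difference of −0.35 in mean log2 ratio that lay between −0.39 and −0.31 when each library was left out in turn. In absolute level BCL2L1 was well above BCL2, with 12.6 to 37.6 times its FPKM in the agomir libraries and 7.83 to 10.5 times in the agomir NC libraries.

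BAX over MCL1, the most abundant anti-apoptotic gene, was 0.415, 0.396 and 0.443 with the agomir and 0.518, 0.432 and 0.407 with the agomir NC, and the groups overlapped. The difference in mean log2 ratio was −0.11, and lay between −0.18 without agomir NC replicate 3 and −0.0052 without agomir NC replicate 1, with −0.069 without agomir replicate 2. The summed effectors over the summed anti-apoptotic genes gave 0.570, 0.550 and 0.594 with the agomir and 0.645, 0.567 and 0.544 with the agomir NC. Here too the groups overlapped, and the difference of −0.031 became 0.041 without agomir NC replicate 1. The summed BH3-only genes over the summed anti-apoptotic genes stayed between 0.511 and 0.529 in all 6 libraries. So the direction of a BAX ratio depended on which anti-apoptotic gene was the divisor, and the ratios of the sums overlapped between the groups.

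**Figure D3:**
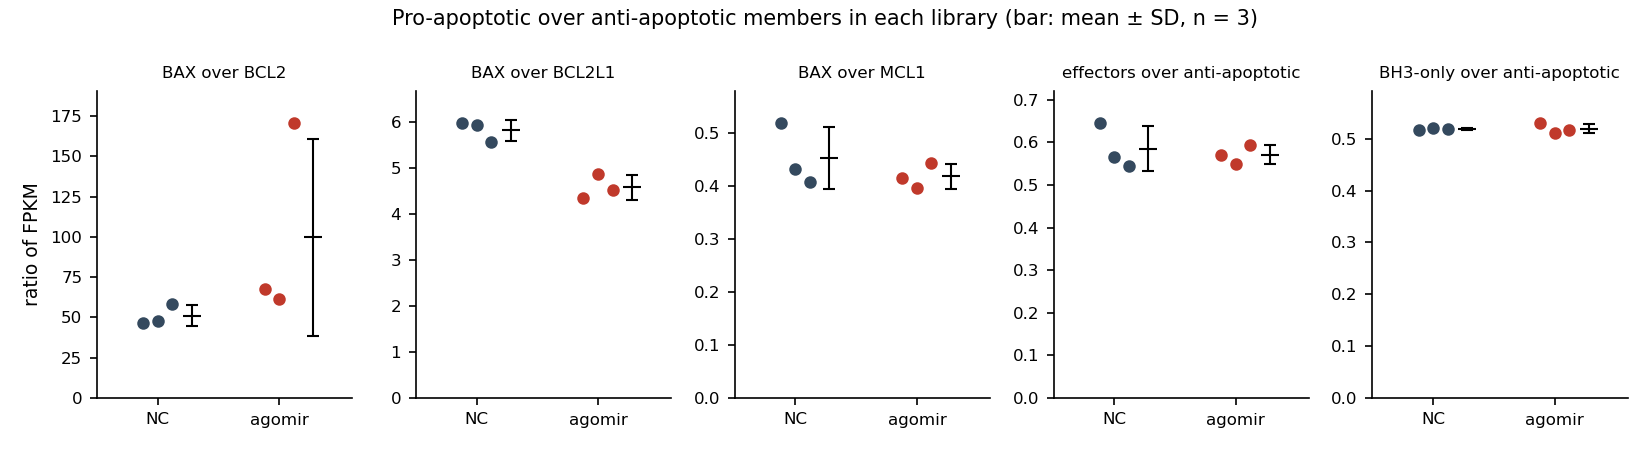
Ratio of FPKM (vertical axes, from 0) of pro-apoptotic over anti-apoptotic genes in the 3 agomir NC libraries (dark points) and the 3 agomir libraries (red points), with bars for mean ± SD. BAX over BCL2 is higher and BAX over BCL2L1 lower in every agomir library, and the other 3 ratios overlap.

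In the reference annotation of the assembly ARS-UCD2.0, in which all 10 genes were matched by symbol, 3 of them overlap another protein-coding gene. BAX overlaps TULP2 (0.750 to 1.17 FPKM over the 6 libraries), BAD overlaps GPR137 (8.71 to 10.98 FPKM) and BCL2L11 overlaps ACOXL (0 to 0.0328 FPKM). In addition, BCL2L1 overlaps the long non-coding RNA gene LOC107133075 and BID overlaps a tRNA gene, for which no FPKM was found by symbol. The FPKM values were made on the build ARS-UCD1.2, so overlaps there may differ. Whether the fragments were assigned by strand is not stated in the sources used here, so reads of overlapping genes may not be separated. Of the 3 overlapping protein-coding genes, GPR137 is the closest in level to the family member it overlaps. GPR137 was at 8.81, 8.81 and 8.71 FPKM under the agomir versus 9.28, 10.98 and 9.54 FPKM under agomir NC. Like BAD, it was lowest in agomir replicate 3 and highest in agomir NC replicate 2. The part of GPR137 reads in the values of BAD was not tested.

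The genes around the family in the same pathway were read from lists of 62 genes, of which 61 were found by symbol and 55 were tested. In limma, 4 of the 55 were higher and 3 lower with the agomir at an unadjusted p under 0.05, and 0 were under an adjusted p of 0.05 with Benjamini-Hochberg adjustment. The share of all genes tested was 6.63% higher and 4.31% lower, 10.9% in either direction, so the 7 of 55 were near that share. The median log2 fold change of the 55 was 0.022, and 0.0057 after median-ratio scaling, 0.0044 without agomir NC replicate 1 and 0.014 without agomir replicate 2. The split depended on the scaling, with 4 higher and 6 lower after median-ratio scaling and 4 higher and 5 lower after quantile normalization. Over all genes tested, 657 were higher and 706 lower after the first scaling, and 696 and 629 after the second. The unadjusted count was 2 without agomir replicate 2 and 4 without agomir replicate 1, where it was 1006 of 12428 and 1220 of 12424 over all genes.

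Of 8 further BCL2 homologs, 5 were tested and 0 were under the unadjusted threshold, which BCL2L10, left out by the filter, passed when no filter was used (0.0190). The most abundant of these homologs was BCL2L13, an outer membrane protein, at 81.5 ± 1.93 FPKM under the agomir versus 79.9 ± 4.41 FPKM under agomir NC (SD, n = 3 each), while BCL2L14 was listed at 0 in every library. Of 7 further BH3-only and BNIP genes, 5 were tested and 3 were under the threshold that 10.9% of all genes passed, and HRK was listed at 0 in every library. BMF, a BH3-only gene, was at 2.80, 2.46 and 2.57 FPKM under the agomir versus 3.01, 3.79 and 3.14 FPKM under agomir NC. All of its agomir values lay below its agomir NC values, with a log2 fold change of −0.29 and a limma p of 0.0231. BNIP3, a mitophagy receptor and the most abundant gene of that list, was also lower, at 86.2 ± 3.37 against 96.3 ± 5.74 FPKM (SD, n = 3 each), with a limma log2 fold change of −0.16, and BNIP1 was higher, at 10.98 ± 1.15 against 8.73 ± 1.18 FPKM (SD, n = 3 each), with one of 0.32. Both overlapped between the groups. Each of these 3 calls was lost when certain libraries were left out: BMF without agomir replicate 2, agomir replicate 3 or agomir NC replicate 2, BNIP3 without agomir replicate 2, agomir replicate 3 or agomir NC replicate 3 and also without the variance trend, and BNIP1 without agomir replicate 1 or agomir NC replicate 2.

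Downstream of the family, 0 of 9 genes of the mitochondrial membrane and of released factors were under the unadjusted threshold. The same count was 0 of 9 for genes of the apoptosome and executioner caspases, against 10.9% of all genes tested. These zeros depended on the setting, and the genes named next for passing in some setting were picked after their values were seen. CASP9, the initiator caspase of the apoptosome, was at 3.98, 4.45 and 4.32 FPKM under the agomir versus 4.72, 4.86 and 5.02 FPKM under agomir NC, lower in every agomir library, with a limma p of 0.0555 that was 0.0381 after median-ratio scaling, 0.0342 after quantile normalization and 0.0254 without the variance trend. HTRA2, a released mitochondrial protease, was lower in every agomir library too, with a limma p of 0.0688 that was 0.0490 and 0.0430 after these scalings and 0.0367 without agomir NC replicate 1. APAF1, the scaffold of the apoptosome, passed as higher without the variance trend (0.0414), and CYCS, the gene of cytochrome c, as higher without agomir NC replicate 3 (0.0130). Over all 12422 genes tested, 706 were lower at that threshold after median-ratio scaling and 629 after quantile normalization. Without the variance trend 489 were lower and 760 higher. With a library left out, 595 of 12403 were lower without agomir NC replicate 1, and 736 of 12415 were higher without agomir NC replicate 3. The most abundant genes of these lists were VDAC2, a channel of the outer membrane to which BAK1 binds, at 111.0 ± 3.42 and 109.3 ± 2.83 FPKM, and BIRC3, an inhibitor of apoptosis protein, at 58.2 ± 1.41 and 56.5 ± 1.84 FPKM for agomir and agomir NC (SD, n = 3 each). Of 8 genes of MCL1 and BIM turnover, all tested, 0 were under the threshold that 10.9% of all genes passed. BAG3 passed it as lower after median-ratio scaling (0.0400) and without agomir NC replicate 2 (0.0360). HUWE1 passed it as higher without agomir NC replicate 1 (0.0220) and with replicate numbers as a block (0.0481). Over all genes tested, 533 of 12421 were lower without agomir NC replicate 2. The higher genes were 828 of 12403 without agomir NC replicate 1 and 738 of 12422 with the block. The most abundant was BAG6 at 61.1 ± 1.597 and 59.2 ± 1.40 FPKM (SD, n = 3 each).

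Upstream of the family, 12 of 13 transcription factor and kinase genes were tested, of which 2 were higher and 1 lower at the unadjusted threshold, against 6.63% and 4.31% of all genes. JUN, a factor that stress kinases activate, was at 19.1, 20.04 and 18.4 FPKM under the agomir versus 16.8, 15.0 and 15.9 FPKM under agomir NC. Its groups did not overlap, and its log2 fold change of 0.27 (standard error 0.062, limma p = 0.00173, adjusted p = 0.248 with Benjamini-Hochberg adjustment, exact permutation p = 0.1) stayed under an unadjusted p of 0.05 whichever library was left out. MYC was higher (11.8 ± 0.161 against 10.5 ± 0.357 FPKM, SD, n = 3 each) and E2F1 lower (1.44 ± 0.267 against 1.94 ± 0.180 FPKM, SD, n = 3 each), both without overlap, as were 10.9% of all genes in the higher and 6.36% in the lower direction. The MYC call was lost without agomir replicate 2, agomir replicate 3 or agomir NC replicate 1, and the E2F1 call without agomir replicate 1 or 2 or agomir NC replicate 1 or 2. ATF4 was the most abundant gene of that list, at 224.1 FPKM in both groups. Of the 7 tested p53 target genes, ZMAT3 alone was under the unadjusted threshold, at 23.5 ± 1.21 against 21.2 ± 0.236 FPKM (SD, n = 3 each), a call lost without agomir replicate 1, agomir replicate 2 or agomir NC replicate 1. TIGAR passed as lower without agomir replicate 3 (0.0452) and GADD45A as lower without agomir NC replicate 2 (0.0304). CDKN1A, the most abundant p53 target of the list, was at 81.7 ± 2.22 and 81.0 ± 2.08 FPKM (SD, n = 3 each), with a limma p above 0.05. Among the family members that p53 also induces, the limma p was above 0.05 for BBC3 and PMAIP1 and under it for BAX, which was lower with the agomir.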

How the data were processed

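The data were RNA sequencing of 3 agomir and 3 agomir NC libraries of bovine preadipocytes, taken at 48 h. The authors deposited 1 FPKM table over all libraries. The submitters' processing notes name fastp, HISAT2, StringTie and the build ARS-UCD1.2, with no versions. Over 2983 low genes, at most 10 shared a bin of 0.002 in log2 ratio between libraries, so whole reads were not recovered and sequencing depth is unknown.

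The 12422 genes whose mean over all libraries reached 0.5 FPKM were taken as log2(FPKM + 0.5), on which fold changes of low genes are understated, and compared with limma 3.58.1 in R 4.3.3 (linear model, variance trend, two-sided, no covariates), with Benjamini-Hochberg adjustment over all 12422. The model was also run on simulated data, but no outcome of that run is given here. Exact permutation tests, ratios and counts were made in Python 3.11.15 with scipy 1.17.1 and pandas 2.3.3. The members and lists were chosen with earlier results of these data known. Named genes were the 10 members and, from each pathway list, those under an unadjusted p of 0.05 and the most abundant; other genes named, and the comparison of BCL2L1 with BCL2, were chosen after their values were seen. Alternatives were leaving out each library, a replicate block, no variance trend, quantile normalization, median-ratio scaling, a minimum mean of 1 FPKM, no minimum, and pseudocounts of 0.1 and 1. A planned search for the BH3 core in protein sequences was not run, since no protein sequences were used here.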

Additional observations from a re-analysis of the deposited data

How the results depend on the processing

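Under 14 alternatives, 0 of the 10 genes were under an adjusted p of 0.05 in limma with Benjamini-Hochberg adjustment, with adjusted p-values between 0.369 and 0.991 over all genes and settings. The count under an unadjusted p of 0.05 was 4, and was 3 with no minimum, after median-ratio scaling or after quantile normalization. It was 2 without the variance trend and between 1 and 3 when 1 library was left out. With a minimum mean of 1 FPKM, BCL2 was not tested and 3 of 9 genes were under that threshold. Of 139 single values, 116 kept their direction and side of the threshold, 20 kept the direction but were no longer under it, 1 (BBC3 without agomir NC replicate 1) passed it, and 2 reversed: BCL2L11 at 0.092 without agomir replicate 3 and 0.010 without agomir NC replicate 3, in a range from −0.23 to 0.092. The median of the 10 genes lay between −0.10 and −0.032 with a library left out, the effector to anti-apoptotic log2 ratio between −0.081 and 0.041, and the BH3-only to anti-apoptotic one between −0.010 and 0.015. The pathway count of 7 lay between 2 and 7 with a library left out and between 7 and 10 in the other settings. The cause of these shifts was not tested; with a library left out, fewer samples enter the test. Replicate numbers, tried as a block, did not pair the libraries (correlations of deviations −0.051, 0.053 and 0.039), and in the fit with that block 3 of the 10 genes were under an unadjusted p of 0.05, BAK1 being above it (0.0570); HUWE1 of the pathway lists was under it (0.0481). With unknown depth, no counting error can be given for any gene, including BCL2, the lowest of the 10 genes in FPKM.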

Other observations

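The effectors were also set against each other, a comparison chosen after their values were seen and given with no test. BAK1 over BAX, as a ratio of FPKM, was 0.511, 0.511 and 0.476 in agomir replicates 1 to 3 and 0.366, 0.418 and 0.444 in agomir NC replicates 1 to 3. BAX was the more abundant effector in every library, and its lead over BAK1 was smaller in each agomir library than in any agomir NC library.

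Of the 55 pathway genes tested, 5 were higher and 5 lower in every agomir library, against 10.9% and 6.36% of all genes. Of these 10, JUN, MYC, ZMAT3, BMF and E2F1 passed the unadjusted limma threshold of 0.05, while the others were HUWE1, which encodes a ubiquitin ligase of MCL1 (0.0574), and APAF1 (0.0955) as higher, and CASP9 (0.0555), HTRA2 (0.0688) and BAG3, a co-chaperone (0.0841), as lower, with limma's unadjusted p in parentheses. These other 5 genes were named after their values were seen.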
